A study of Homo sapiens with 21 samples.

Results

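The 240 genes described here were the protein-coding genes of chromosome 19 in GENCODE 29 whose symbol is ZNF followed by digits only, out of 60617 genes in the tables. The rule that picked them used name and position and not their values, but it was set with earlier results of these data known. Another 235 protein-coding genes with such symbols lie on other chromosomes. Messenger RNA with a poly(A) tail was sequenced in 7 lines of SUM149PT, cells from an inflammatory breast cancer that are labelled as negative for estrogen and progesterone receptors. Each of E, EM1, EM2, EM3, M1 and M2 was 1 clone of that line, and Parental was the uncloned line they were set against; every line had 3 libraries and none was treated. The series title concerns cell states from epithelial through intermediate to mesenchymal, and the labels do not say what the letters of the clone names stand for. Expected counts, the reads assigned to genes, summed to between 24602417 and 48149939 a library.

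Most of these genes encode proteins with a row of zinc fingers of the Cys2-His2 kind, each finger reading a few bases of DNA. In the largest family the fingers follow a KRAB domain, which binds the co-repressor TRIM28, and TRIM28 in turn brings SETDB1, an enzyme that puts repressive methylation on histones. Many of the proteins bind transposable elements and keep them silent. The genes arose by repeated local duplication, so that they stand in rows along chromosome 19, and neighbours are often close in sequence.

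Here the chromosome was divided at every gap of over 1 Mb between neighbouring ZNF genes, which gave 16 blocks numbered from the start of the chromosome. The 4 largest were block 16 with 57 genes (55.48 to 58.48 Mb), block 15 with 39 (51.57 to 53.58 Mb), block 5 with 37 (19.67 to 24.13 Mb) and block 3 with 25 (11.48 to 12.64 Mb). A gene was called on in a line at a mean of at least 1 TPM over its 3 libraries, TPM being transcript abundance scaled for transcript length and library total. It was called near zero in a line at no more than 3 expected counts over those 3 libraries together. By these limits 117 of the 240 genes were on in all 7 lines and 20 were near zero in all 7. A further 12 were near zero in M2 alone while holding at least 30 counts in each other line, and 5 had at least 30 counts in M2 while near zero in each other line. Of the others, 21 were near zero in other sets of lines and 65 lay between the limits.

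**Figure D1:**
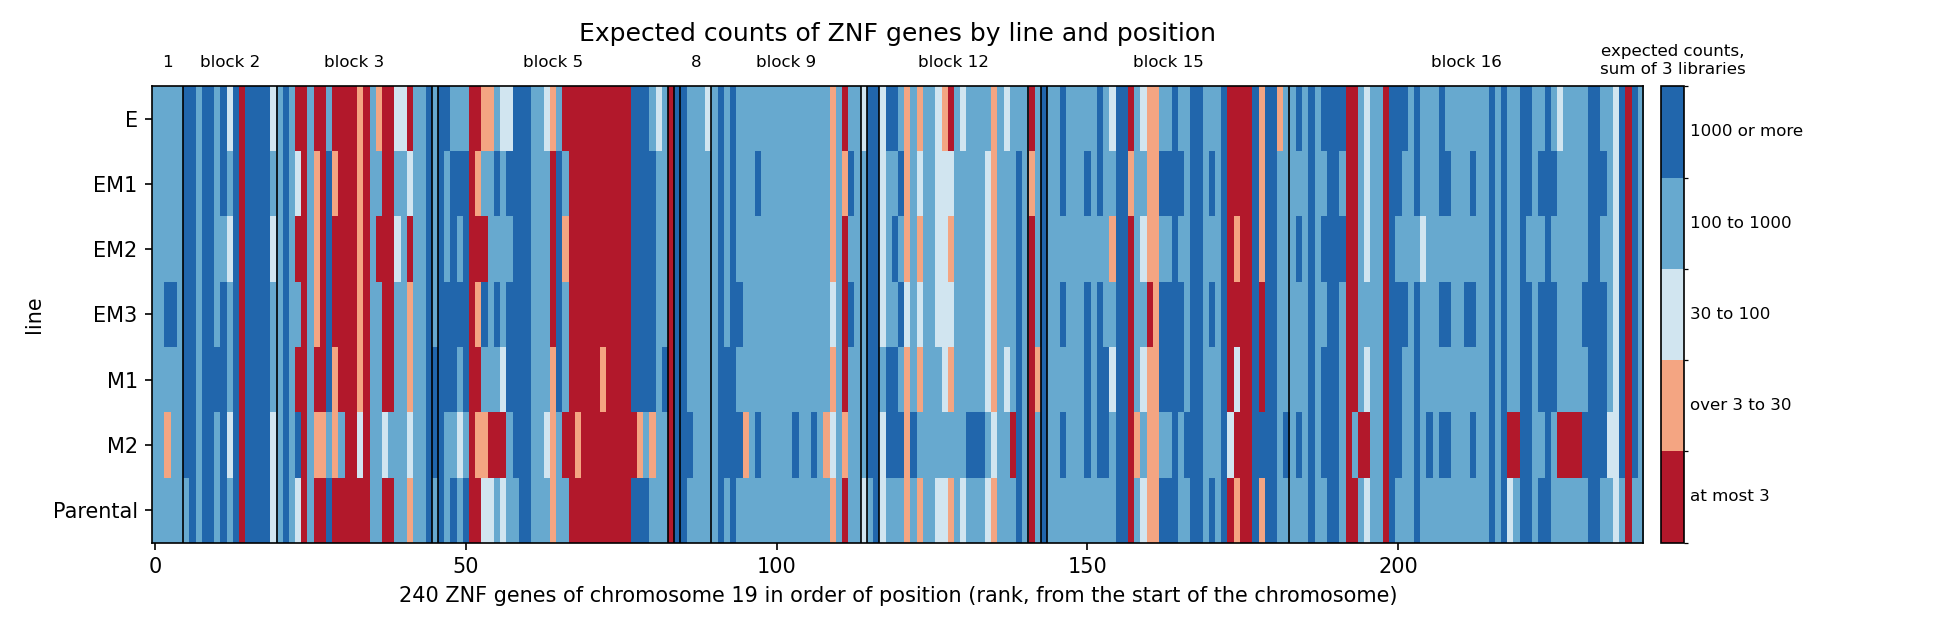
Expected counts of the 240 ZNF genes of chromosome 19, summed over the 3 libraries of each line. Each column is a gene, in order of position, each row a line, colours give count classes, and vertical lines divide the 16 blocks. The darkest red marks genes at no more than 3 counts. It marks 9 genes of block 5 in every line, and in block 16 the 8 genes near zero only in M2 show as red columns in the M2 row.

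The promoters of 6 of the genes are shown because the results below turn on these genes: the neighbours ZNF667 and ZNF583, which had opposite patterns in M2; ZNF154, ZNF256 and ZNF724, which were near zero in M2 alone; and ZNF44, which was at 0 in EM2 alone. Each sequence is the RefSeq window from 250 bases before to 50 bases after a RefSeq start of the gene in build GRCh38.p14, read 5′ to 3′ on the gene's own strand. Where a gene had several windows, the first listed was taken. RefSeq starts can differ from the GENCODE positions given below. The ZNF583 window lies inside the gene, which starts at 56397966 in GENCODE. Capitals mark each CpG, the dinucleotide that can carry DNA methylation, which was not measured in these libraries. The windows lie at chr19:56477296-56477595 (ZNF667, minus strand), chr19:56403764-56404063 (ZNF583, plus strand), chr19:57709155-57709454 (ZNF154, minus strand), chr19:57947657-57947956 (ZNF256, minus strand), chr19:23250345-23250644 (ZNF724, minus strand) and chr19:12294834-12295133 (ZNF44, minus strand).
ZNF667: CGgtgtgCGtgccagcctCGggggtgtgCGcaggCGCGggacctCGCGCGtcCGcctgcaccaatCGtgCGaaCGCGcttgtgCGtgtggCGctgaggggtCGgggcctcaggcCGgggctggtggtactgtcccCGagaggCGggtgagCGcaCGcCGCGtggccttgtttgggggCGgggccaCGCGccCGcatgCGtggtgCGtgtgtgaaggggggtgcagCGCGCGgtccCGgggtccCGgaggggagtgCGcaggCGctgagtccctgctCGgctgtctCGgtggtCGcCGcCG
ZNF583: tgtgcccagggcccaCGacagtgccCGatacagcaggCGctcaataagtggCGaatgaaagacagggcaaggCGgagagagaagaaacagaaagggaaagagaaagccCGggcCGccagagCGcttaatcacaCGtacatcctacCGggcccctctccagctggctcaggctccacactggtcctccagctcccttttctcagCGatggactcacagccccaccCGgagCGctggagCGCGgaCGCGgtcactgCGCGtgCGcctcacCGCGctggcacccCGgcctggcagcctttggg
ZNF154: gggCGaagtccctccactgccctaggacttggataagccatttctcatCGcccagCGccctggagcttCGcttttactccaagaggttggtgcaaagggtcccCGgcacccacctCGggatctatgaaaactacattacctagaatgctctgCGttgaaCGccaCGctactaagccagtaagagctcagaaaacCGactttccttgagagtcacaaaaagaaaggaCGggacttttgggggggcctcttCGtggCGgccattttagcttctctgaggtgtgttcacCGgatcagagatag
ZNF256: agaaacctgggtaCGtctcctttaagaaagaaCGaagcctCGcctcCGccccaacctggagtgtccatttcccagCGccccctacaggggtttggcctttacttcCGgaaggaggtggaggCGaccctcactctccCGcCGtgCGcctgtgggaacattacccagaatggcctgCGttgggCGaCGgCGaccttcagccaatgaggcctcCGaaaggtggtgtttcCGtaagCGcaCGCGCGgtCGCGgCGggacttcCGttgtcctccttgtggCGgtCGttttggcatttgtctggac
ZNF724: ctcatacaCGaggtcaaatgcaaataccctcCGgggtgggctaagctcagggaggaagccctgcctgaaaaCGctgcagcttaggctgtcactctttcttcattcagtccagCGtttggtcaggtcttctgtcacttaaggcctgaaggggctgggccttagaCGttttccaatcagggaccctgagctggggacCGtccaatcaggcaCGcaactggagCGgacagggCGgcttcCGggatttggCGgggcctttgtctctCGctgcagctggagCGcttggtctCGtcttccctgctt
ZNF44: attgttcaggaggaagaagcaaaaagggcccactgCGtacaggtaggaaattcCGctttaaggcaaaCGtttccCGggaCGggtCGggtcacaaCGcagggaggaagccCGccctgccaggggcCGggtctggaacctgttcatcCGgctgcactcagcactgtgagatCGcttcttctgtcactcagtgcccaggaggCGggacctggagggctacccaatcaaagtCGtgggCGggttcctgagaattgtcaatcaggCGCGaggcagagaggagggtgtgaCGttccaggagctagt

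The ZNF667 window held 42 CpG dinucleotides and the ZNF583 window 23, against 26 for ZNF256, 17 for ZNF44 and 14 each for ZNF154 and ZNF724. Such windows were found for 209 of the 240 genes. Their median was 20 CpG, and it was 14 over all 35116 promoter windows in the RefSeq table. The 105 matched genes that were on in all lines had a median of 22, the 11 near zero in M2 alone a median of 14 (8 to 42), and the 5 with at least 30 counts in M2 and near zero elsewhere a median of 19. The 18 near zero in other sets of lines had a median of 13.5 and the 14 near zero in all lines a median of 16. The ranges of these classes overlapped.

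By position, the 29 windows of block 5 held 8 to 18 CpG with a median of 10, while the 52 of block 16 held 11 to 42 with a median of 23. The median was 16 in block 3 and 25 in block 15. The letters CCGGAAG, searched on both strands, stood in 93 of the 209 windows (44.5%), against 10.3% of all windows of this length and 31.0% of the 258 windows of ZNF genes on other chromosomes. CCATNTT, searched in the same way, stood in 37 (17.7%), against 15.6% of all windows and 15.1% of those of ZNF genes on other chromosomes. The 2 motifs were counted separately, and these counts describe letters, not bound sites.

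**Figure D2:**
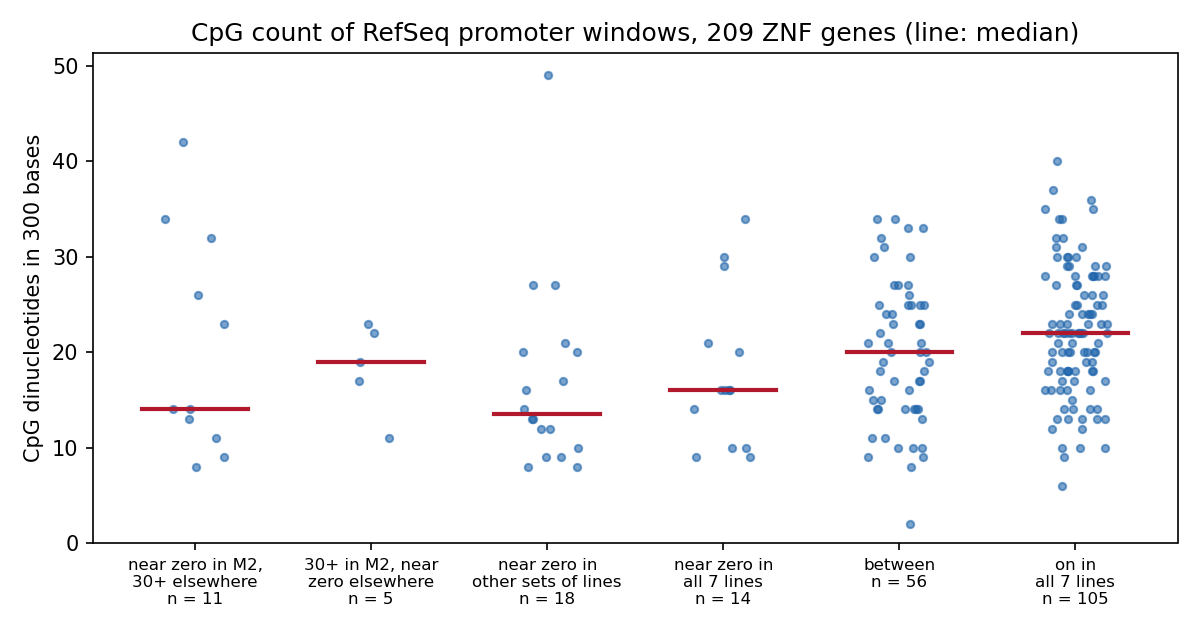
CpG dinucleotides in the 300 bases of each RefSeq promoter window, by expression class, for the 209 ZNF genes with a window. Each point is a gene and the red line is the median of its class. Medians run from 13.5 for genes near zero in other sets of lines to 22 for genes on in all 7 lines, and the points of all classes overlap.

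The 117 genes on in every line had a median of 4.11 TPM over the 7 lines. The ratio of a gene's highest line to its lowest had a median of 2.14, and it was under 2 for 46 of them and over 4 for 9. ZNF146, which encodes a short protein made of zinc fingers without a KRAB domain, had the highest level. In a bulk library, fewer cells that express a gene and less RNA per cell cannot be told apart. ZNF146 had 86.8 ± 8.79 TPM in M2, 56.8 ± 6.76 in EM1, 54.2 ± 8.59 in EM3, 51.0 ± 7.65 in M1, 48.7 ± 4.22 in EM2 and 47.8 ± 0.698 in E, against 55.9 ± 1.54 in Parental (SD, n = 3 each). Its 3 M2 libraries (93.02, 90.56 and 76.71 TPM) all lay above its 18 others, and no other 2 neighbours in that order differed beyond their spread.

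The next levels, as means over the 7 lines, were 28.1 TPM for ZNF787, 24.2 for ZNF358, 21.7 for ZNF562, 21.3 for ZNF561, 19.5 for ZNF121, 17.5 for ZNF791, 16.4 for ZNF544, 15.5 for ZNF83 and 14.1 for ZNF581. ZNF787 had 54.2 ± 14.8 TPM in M2, against 27.2 ± 6.79 in Parental and 19.4 to 24.9 in the other clones. The flattest gene was ZNF581, at 12.3 TPM in its lowest line, M1, and 15.2 in its highest, Parental, a ratio of 1.24. The widest was ZNF320, with a ratio of 10.1: 1.29 TPM in M2 and 13.04 in EM1, with 8.61 in Parental. That ratio is less certain, since ZNF320 counts were not whole in all 21 libraries and varied widely within a line. They were 516.76, 93.47 and 158.33 in EM1, and 43.34, 9.54 and 164.81 in M2. By the test described below, ZNF320 was not called in M2. ZNF577, at 6.32 TPM in M2, 1.02 in EM2 and 1.46 in Parental, had the next widest ratio of 6.19. The highest line was M2 for 52 of the 117 genes, and the lowest line was E for 40 and EM2 for 34.

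The share of genes on in all lines differed by block. It was 80% in block 2 (12 of 15), 66.7% in block 15 and 57.9% in block 16, against 28% in block 3 and 27% in block 5. Of the ZNF genes on other chromosomes 71.1% (167 of 235) were on in all lines, and of the other protein-coding genes of chromosome 19, zinc finger genes left out, 46.3% (557 of 1203), against 48.8% here. At the limit, ZNF577 and ZNF490 were just inside, with 1.02 TPM in their lowest lines, and ZNF784 and ZNF816 just outside, with 0.987 and 0.997.

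Of the 20 genes near zero in every line, 9 lay in block 5, from ZNF682 to ZNF730, and 4 in block 3 (ZNF491, ZNF878, ZNF844 and ZNF625). Block 16 held ZNF582, ZNF835 and ZNF132, block 15 held ZNF665 and ZNF677, and block 2 held ZNF560. ZNF536, a repressor of neuronal differentiation, stood alone in block 6. Genes near zero numbered 39 in E, 38 in EM2, 38 in M2, 36 in EM3, 34 in M1 and 30 in EM1, against 35 in Parental. That is 12.5 to 16.3% of the 240 genes in a line, against 23.9 to 28.4% of all other protein-coding genes. The limit of 3 counts cuts a continuous range: 4 to 10 further genes of each line, except EM3 with 2, lay above 3 and at no more than 10 counts.

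Of the 240 genes, 18 were near zero in exactly 1 line: 13 in M2, 2 in EM2 (ZNF44 and ZNF486), and 1 each in E (ZNF284), EM3 (ZNF534) and Parental (ZNF20). ZNF534 and ZNF20 were low everywhere. ZNF534 had 3 counts in EM3 and 4 to 13 in each other line. ZNF20 had 3 counts in Parental and 10.76 to 35.44 in the clones. Its 0.21 TPM in Parental lay within the 0.0333 to 0.35 of the clones, and its values were not whole in 15 libraries. Counting genes with at least 30 counts in each other line, 12 of 185 (6.49%) were near zero in M2, against 230 of 11948 other protein-coding genes of the genome (1.93%). It was 1 of 18 (5.56%) for the chromosome 19 zinc finger genes with other symbols, 7 of 662 (1.06%) for the remaining protein-coding genes of chromosome 19 and 3 of 207 (1.45%) for ZNF genes of other chromosomes. By the same rule no ZNF gene of chromosome 19 was near zero only in E, EM1, EM2, EM3, M1 or Parental. With at least 10 counts in each other line it was 15 genes, 13 of them in M2. These 12 were picked by their counts, so their values are a description without a test.

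Of the 12 genes, 8 lay in block 16, where ZNF667 and ZNF471 were neighbours, as were ZNF154 and ZNF671, and ZNF418, ZNF256, ZNF606 and ZNF135 followed one another over 164.4 kb. ZNF626 and ZNF66 were neighbours in block 5, ZNF724 lay further along that block, and ZNF229 lay in block 12. Next before ZNF626 stood ZNF737, the other of the 13 genes near zero in M2 alone. It had 0 counts in M2, 68.36 in Parental and 305.92 in EM1, but 26.9 in E, under the limit of 30. With ZNF626 and ZNF66 it made a run of 3 genes over 271.5 kb. ZNF737 had values that were not whole in 18 libraries. ZNF256 (chr19:57940833-57947675, minus strand) had 0, 1 and 0 counts in M2, against 270.93, 183 and 320 in Parental and 143 to 370 in each library of the other clones. Its pooled level was 975-fold lower in M2 than in Parental, with a 95% counting interval of 174 to 38550. Exact intervals of this kind cover counting error only, and reads without molecular tags are not independent molecules.

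ZNF154 (chr19:57697367-57709194, minus strand), whose promoter is often methylated in tumours, had 0 counts in all 3 M2 libraries, against 20, 37 and 33 in Parental. Set against a floor of 3 counts over the 3 libraries of M2, it was at least 37.8-fold lower in M2. ZNF724 (chr19:23221599-23250390, minus strand) had 0, 2 and 1 counts in M2, against 662.05, 472.69 and 1170.06 in Parental, a ratio of 968 (95% counting interval 331 to 4696). In the other clones ZNF724 had 360.01 to 1480.99 counts a library. For none of these 3 genes did an M2 library overlap a library of another line. The limits by which the genes were picked leave little room for any other outcome.

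**Figure D3:**
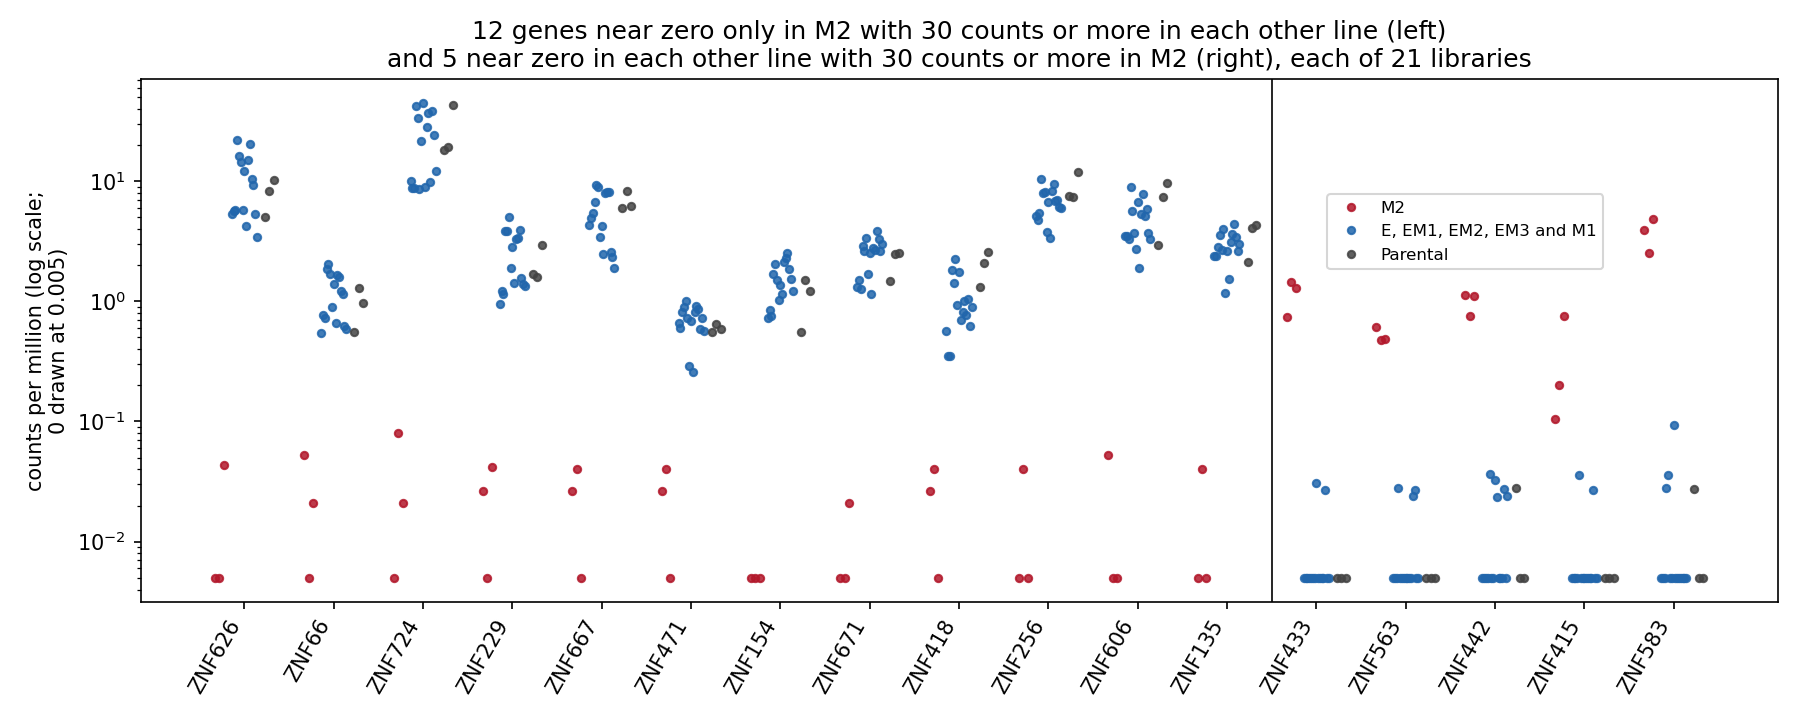
CPM, expected counts scaled to the library total, for each of the 21 libraries, on a log scale with 0 drawn at 0.005, for the 12 ZNF genes near zero only in M2 with at least 30 counts in each other line (left) and the 5 near zero in each other line with at least 30 counts in M2 (right). Red points are M2, blue the other 5 clones, grey Parental. M2 lies below every other library on the left and above every other library on the right, which the limits used to pick these genes nearly require.

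The mirror image, at least 30 counts in M2 and near zero in each other line, was seen for 5 genes. They were ZNF433, ZNF563 and ZNF442 in block 3, ZNF415 in block 15 and ZNF583 in block 16, which is 5 of the 27 ZNF genes (18.5%) near zero in each other line; ZNF257 and ZNF69, at 5 and 3.14 counts in M2, were above 3 counts there alone as well. Of the other protein-coding genes near zero in each other line, 83 of 3749 (2.21%) had at least 30 counts in M2. ZNF433 had 28, 36 and 61 counts in M2, against 0 in all 3 Parental libraries, and was at least 33.1-fold higher in M2 against a floor of 3 counts over the Parental libraries. ZNF563 had 58 counts over the M2 libraries (23, 12 and 23) and ZNF415 had 45 (4, 5 and 36), both at 0 in Parental. They were at least 15.4-fold and 11.9-fold higher. ZNF415 reached 30 counts only through M2 replicate 3, and it overlaps ZNF347 on the same strand. ZNF442 had 114.18 counts in M2, against 1.02 in Parental.

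The neighbours ZNF583 and ZNF667 went opposite ways in M2. ZNF583 (chr19:56397966-56436035, plus strand) had 149, 63 and 232 counts in M2, against 1, 0 and 0 in Parental and 0 to 3 in the other clones' libraries. That is a ratio of 353 with a counting interval of 63 to 13956. ZNF667 (chr19:56439325-56478065, minus strand), which ends within 5 kb of it, had 1, 1 and 0 counts in M2, against 217, 204 and 168 in Parental and 80 to 369 in the other clones' libraries. Its ratio was 371-fold lower in M2 (counting interval 102 to 3070). ZNF667-AS1, the antisense gene that overlaps the start of ZNF667, had 2 counts in M2, against 612 in Parental and 499 to 988 in the other clones.

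Genes beside several of the runs were on in M2. ZNF551, which overlaps ZNF154 on the opposite strand, had 2073 counts in M2, against 2001 in Parental. ZNF776, next after ZNF671, had 1583 in M2 and 1162 in Parental, and ZNF417, next before ZNF418, had 852 in M2 and 743 in Parental. By the test described below, none of ZNF551, ZNF776 and ZNF417 was called higher or lower in M2. ZFP28, after ZNF471, had 1083 in M2 and 334 in Parental. ZSCAN18, which overlaps ZNF135 on the opposite strand, had 1 count in M2, against 964 in Parental. Of the 24 places beside the 12 genes, 16 held a protein-coding gene near zero in M2, the 12 themselves included where they adjoin, and 7 held one with at least 30 counts there. Among the 16 were ZNF730 and ZSCAN1, near zero in every line, and C19orf18, with only 10 to 19 counts in the other lines. ZSCAN1 lies beside both ZNF606 and ZNF135, and C19orf18 beside both ZNF256 and ZNF606. Of all other protein-coding genes, 28.4% were near zero in M2.

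Reads that fit several genes were split by the authors' counting, and how far this touched a gene can be read from values that are not whole. In a library 28.3 to 36.3% of the values of these ZNF genes were not whole, against 7.44 to 8.61% over all genes. ZNF667, ZNF583, ZNF154, ZNF671, ZNF135, ZNF433 and ZNF44 had whole values in all 21 libraries. ZNF626 had values that were not whole in 19, ZNF724 in 15 and ZNF91 in 21, so their counts are less certain. No source used here gives a strand setting, so reads of ZNF667 and ZNF667-AS1, or ZNF433 and ZNF433-AS1, cannot be told apart where they overlap.

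In block 3 the clones differed gene by gene. ZNF44 (chr19:12224686-12294887, minus strand) had 0 counts in all 3 EM2 libraries, against 26, 48 and 50 in Parental, so that it was at least 56.3-fold lower in EM2. It had 8, 10 and 8 counts in E, 18 to 68 a library in EM1, EM3 and M1, and 184, 144 and 216 in M2, above every other library. ZNF441, also in block 3, had 0 counts in E, 2 in EM2 and 0 in M1, against 42 in Parental, with 97 in EM1, 144 in EM3 and 1037 in M2. It was at least 22.4-fold lower in E and at least 20.2-fold lower in M1 than in Parental.

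In block 5, ZNF486 and ZNF43 split the clones in another way. ZNF486 had 829.11 counts in EM1, 1293.75 in EM3 and 881.61 in M1, and 6 in E, 2 in EM2 and 22 in M2, against 69.99 in Parental. Every library of EM1, EM3 and M1 (151 to 604.76) lay above every Parental library (15.99, 19 and 35), and every library of E, EM2 and M2 (0 to 14) lay below. ZNF43 had 687.33 counts in EM1, 771.1 in EM3 and 677.87 in M1, and 3 in E, 13 in EM2 and 1 in M2, against 360.41 in Parental. ZNF284 in block 12 was at 0 in E, with 387.64 counts in M2 and 19.24 in Parental.

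Each clone was next compared with Parental by edgeR's quasi-likelihood test on counts, in 1 fit over all genes. The 6 comparisons share the 3 Parental libraries, and no label says whether replicate libraries are from different cultures, so p-values measure only the spread between libraries. A gene was called at a Benjamini-Hochberg adjusted p under 0.05. Of the 240 genes 206 passed the filter on low counts; 6 of them (ZNF433, ZNF20, ZNF563, ZNF442, ZNF525 and ZNF583) passed through M2 alone and 1 through EM3 alone, so that a difference in those lines was built in.

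In E, 40 of the 206 genes were lower than in Parental and 0 higher, or 19.4% lower against 5.93% lower and 5.02% higher over all 18632 genes tested. At an unadjusted p under 0.05, 8 were higher, and DESeq2 called 3 and limma-voom 1 as higher. The median log2 fold change over Parental was -0.43, or -0.44 with genes at 0 set to their bound, against -0.01 over all genes. The 217 tested ZNF genes of other chromosomes had 12.4% lower and a median of -0.21, and the 820 tested protein-coding genes of chromosome 19 that are no zinc finger genes had 2.07% lower and a median of 0.41. The count of lower genes was 16 in a test on TPM. It was 23, 22 and 22 without E replicate 1, 2 and 3, and 23 without Parental replicate 3.

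In block 3, 9 of 18 tested genes were lower in E, with a median log2 fold change of -1.59 (-1.11 with genes at their bound), and in block 5, 8 of 24, with a median of -1.03. With TPM the counts were 3 and 4. Both counts were 5 without any 1 of the E libraries, and that of block 5 also without Parental replicate 2 or 3. ZNF440, which had 111.05 counts in E against 430.72 in Parental, fell by 2.56 on the log2 scale (SE 0.305). ZNF85 fell by 3.43 (SE 0.528), at 0.69 TPM in E against 5.67 in Parental. ZNF93, which represses L1 retrotransposons, fell by 2.01 (SE 0.384), at 3.33 TPM in E against 10.02 in Parental. ZNF43, at 3 counts in E, had the lowest fitted value, with an adjusted p of 0.00019, and ZNF441 an adjusted p of 0.00299.

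ZNF813 in block 15 had 7.13, 8.99 and 7.27 counts in E, against 170.41, 124.69 and 238.5 in Parental, a log2 fold change of -5.10 (SE 0.472, adjusted p = 2.76e-06). Its values were not whole in any library, and the test on TPM did not call it. ZNF83, on in every line, had 5.59 ± 0.217 TPM in E, against 16.1 ± 5.95 in Parental, and fell by 1.26 (SE 0.257).

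All 3 E libraries had short effective lengths, a library trait that was also seen in replicate 3 of every other clone. Weighted by TPM, the lengths were 710 to 731 bases in E, 767 to 853 in those replicates, 907 to 1039 in the other clone libraries and 750 to 867 in Parental. With the mean effective length of a library as a covariate, 38 genes were lower in E. No other line had weighted lengths in the range of E, so this fit cannot fully tell clone E from the library trait. Summed over the 240 genes, CPM came to 1509 ± 10.3 in E, 1640 ± 368 in EM2, 1864 ± 325 in M1, 2187 ± 209 in EM3, 2221 ± 87.0 in M2 and 2285 ± 306 in EM1, against 2047 ± 340 in Parental (SD, n = 3 each). Replicate 3 had the lowest sum of its clone in EM1 (1981), EM2 (1300), EM3 (1961) and M1 (1524). In M2 it had 2187, between 2155 and 2319, and the E libraries had 1497 to 1517.

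**Figure D4:**
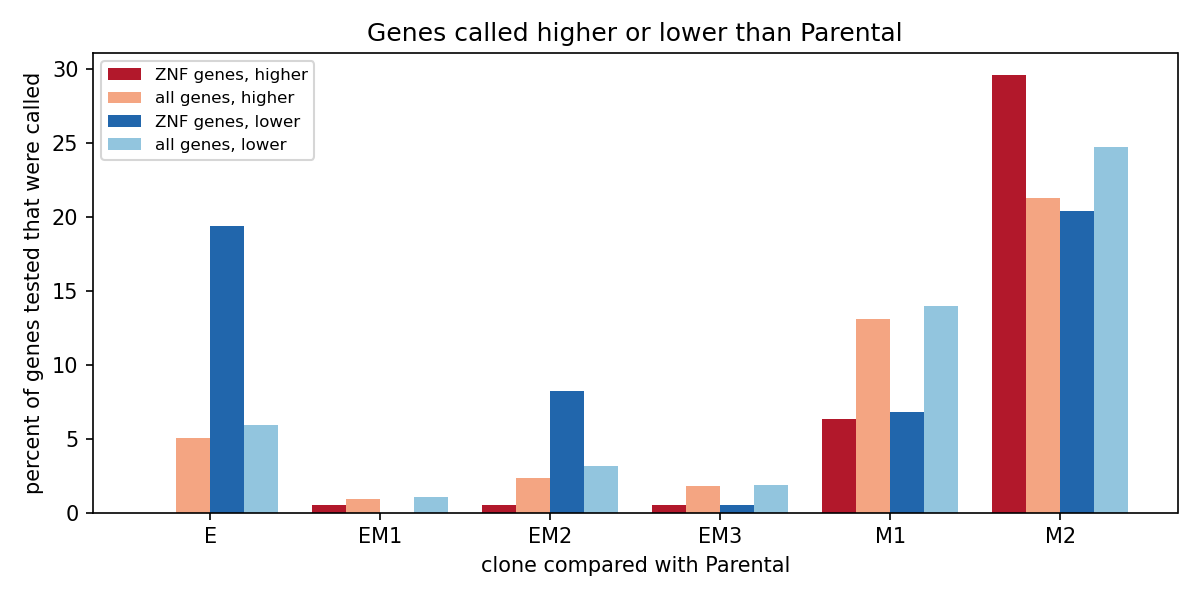
Percent of genes called higher or lower in each clone than in Parental (edgeR, adjusted p under 0.05), for the 206 tested ZNF genes of chromosome 19 (dark bars) and for all 18632 tested genes (pale bars). In E the ZNF genes were called lower in 19.4%, against 5.93% of all genes, and in M1 both ZNF bars were under the bars of all genes.

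EM2 had 17 ZNF genes lower than Parental and 1 higher (8.25 and 0.485%), against 3.17% lower and 2.32% higher over all genes, with a median log2 fold change of -0.39, against 0.00. Of the 17, 5 lay in block 3, among them ZNF44 (adjusted p = 3.63e-06), and 5 in block 16. ZNF836 in block 15 fell by 3.36 (SE 0.383), with 7, 10.04 and 4 counts in EM2, against 55.14, 40.04 and 74 in Parental. ZNF486 and ZNF43 were also lower, with adjusted p of 0.0012 and 0.000924. The only gene higher was ZNF580, at 15.3 ± 1.498 TPM in EM2 against 6.66 ± 1.61 in Parental. Its log2 fold change was 1.08 (SE 0.293, adjusted p = 0.036), and the call was lost without any 1 of the EM2 or Parental libraries.

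The EM2 count depended on the libraries and the fit. It was 8 without EM2 replicate 1, 7 without EM2 replicate 3, 11 without Parental replicate 2 or replicate 3, 4 with EM2 and Parental fitted alone, and 58 with effective length as a covariate. ZNF44 was called lower in EM2 in each of these fits.

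Few ZNF genes were called in EM1 and EM3. In EM1, 1 gene was higher and 0 lower (0.485% higher, against 0.939% higher and 1.07% lower over all genes). At an unadjusted p under 0.05, 22 were higher and 2 lower. DESeq2 called 8 higher and 1 lower, and limma-voom 2 higher and 1 lower. In EM3, 1 was higher and 1 lower, against 1.82% and 1.88% over all genes. ZNF486 was the higher one in both, with a log2 fold change of 3.38 (SE 0.598, adjusted p = 0.00478) in EM1 and 3.74 (SE 0.606, adjusted p = 0.0015) in EM3. ZNF347 was lower in EM3, with 0, 0 and 1 counts against 8, 7 and 14 in Parental, and this call was lost without EM3 replicate 1 or 2 or Parental replicate 3.

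M1 had 13 genes higher and 14 lower, 6.31 and 6.80% of those tested, against 13.1% higher and 14% lower over all genes, so that both shares were under those of all genes. ZNF486 was higher by 3.21 (SE 0.595, adjusted p = 0.000467). ZNF333 was higher by 1.36 (SE 0.268), at 3.65 ± 0.497 TPM in M1 against 1.48 ± 0.43 in Parental, and ZNF546 by 1.61 (SE 0.497), a call lost without M1 replicate 1 or Parental replicate 1. ZNF441 was at 0 in M1 (adjusted p = 0.000727). ZNF114 fell by 4.66 (SE 0.832), with 9, 6 and 1 counts in M1, against 62, 98 and 143 in Parental. ZNF836 fell by 2.28 (SE 0.355). The higher count was 6 without M1 replicate 2, 7 without Parental replicate 1 and 8 without Parental replicate 3, and the lower count 9 without M1 replicate 3. With effective length as a covariate 22 were higher and 43 lower, and with TPM 7 were lower.

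M2 had the most ZNF genes called of the 6 clones, 61 higher and 42 lower of 206. That is 29.6% higher, against 21.3% of all genes, and 20.4% lower, against 24.7% of all genes. The median log2 fold change was 0.27, against -0.06 over all genes. Without the 6 genes that passed the filter through M2 alone, 56 of 200 were higher (28%) and 42 lower, with a median of 0.22. The 217 tested ZNF genes of other chromosomes had 24.9% higher and 19.4% lower, with a median of 0.04. These calls were spread unevenly over the blocks.

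In block 5, 19 of 24 tested genes were lower in M2, with a median of -1.75. The count was 12 without Parental replicate 3 and 12 with M2 and Parental fitted alone. ZNF91, which represses SVA retrotransposons, had 6.04, 2.01 and 8.18 counts in M2, against 1172.21, 1047.65 and 1436.81 in Parental, and fell by 8.11 (SE 0.529, adjusted p = 5.43e-10). It lies beside ZNF724. ZNF681 had 6 counts in M2, against 976.93 in Parental, and fell by 7.60 (SE 0.747). ZNF675, an inhibitor of TRAF6 signalling, fell by 2.14 (SE 0.452), at 3.66 TPM in M2 against 12.2 in Parental, and ZNF714 by 2.10 (SE 0.569). ZNF430, ZNF708, ZNF100, ZNF726 and ZNF254 were not called, and ZNF726 had 1.96 TPM in M2 against 1.62 in Parental.

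In block 12 the direction was the other one: 14 of 23 tested genes were higher in M2 and 1, ZNF229, was lower, with a median of 1.06. ZNF225 rose by 2.50 (SE 0.318, adjusted p = 3.51e-06), with 169, 112 and 281 counts in M2, against 26, 26 and 27 in Parental. ZNF234 rose by 1.97 (SE 0.277), ZNF45 by 1.40 (SE 0.220) and ZNF227 by 1.296 (SE 0.214), the last at 11.8 TPM in M2 against 3.87 in Parental. ZNF284 rose by 4.09 (SE 0.648). Of the 24 other protein-coding genes tested within this block, 7 were higher and 5 lower in M2.

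In block 3, 4 of the 18 tested genes (ZNF433, ZNF20, ZNF563 and ZNF442) passed the filter through M2 alone. Of the other 14, 5 were higher in M2 and 1 lower, with a median of 0.14, against 8 higher and a median of 0.99 with those 4 genes. ZNF441 rose by 4.41 (SE 0.700, adjusted p = 0.00012) and ZNF44 by 1.84 (SE 0.400). The 5 other protein-coding genes tested in this block had a median of -0.20. Blocks 15 and 16 were mixed, with 10 higher and 5 lower of 32 and with 12 higher and 11 lower of 53, leaving out ZNF525 and ZNF583, which also passed through M2 alone. ZNF525 in block 15 had 512.18, 289.01 and 850.38 counts in M2, against 1, 3.02 and 5.03 in Parental and at most 5.07 in any library of the other clones. Of its 21 values 16 were not whole.

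**Figure D5:**
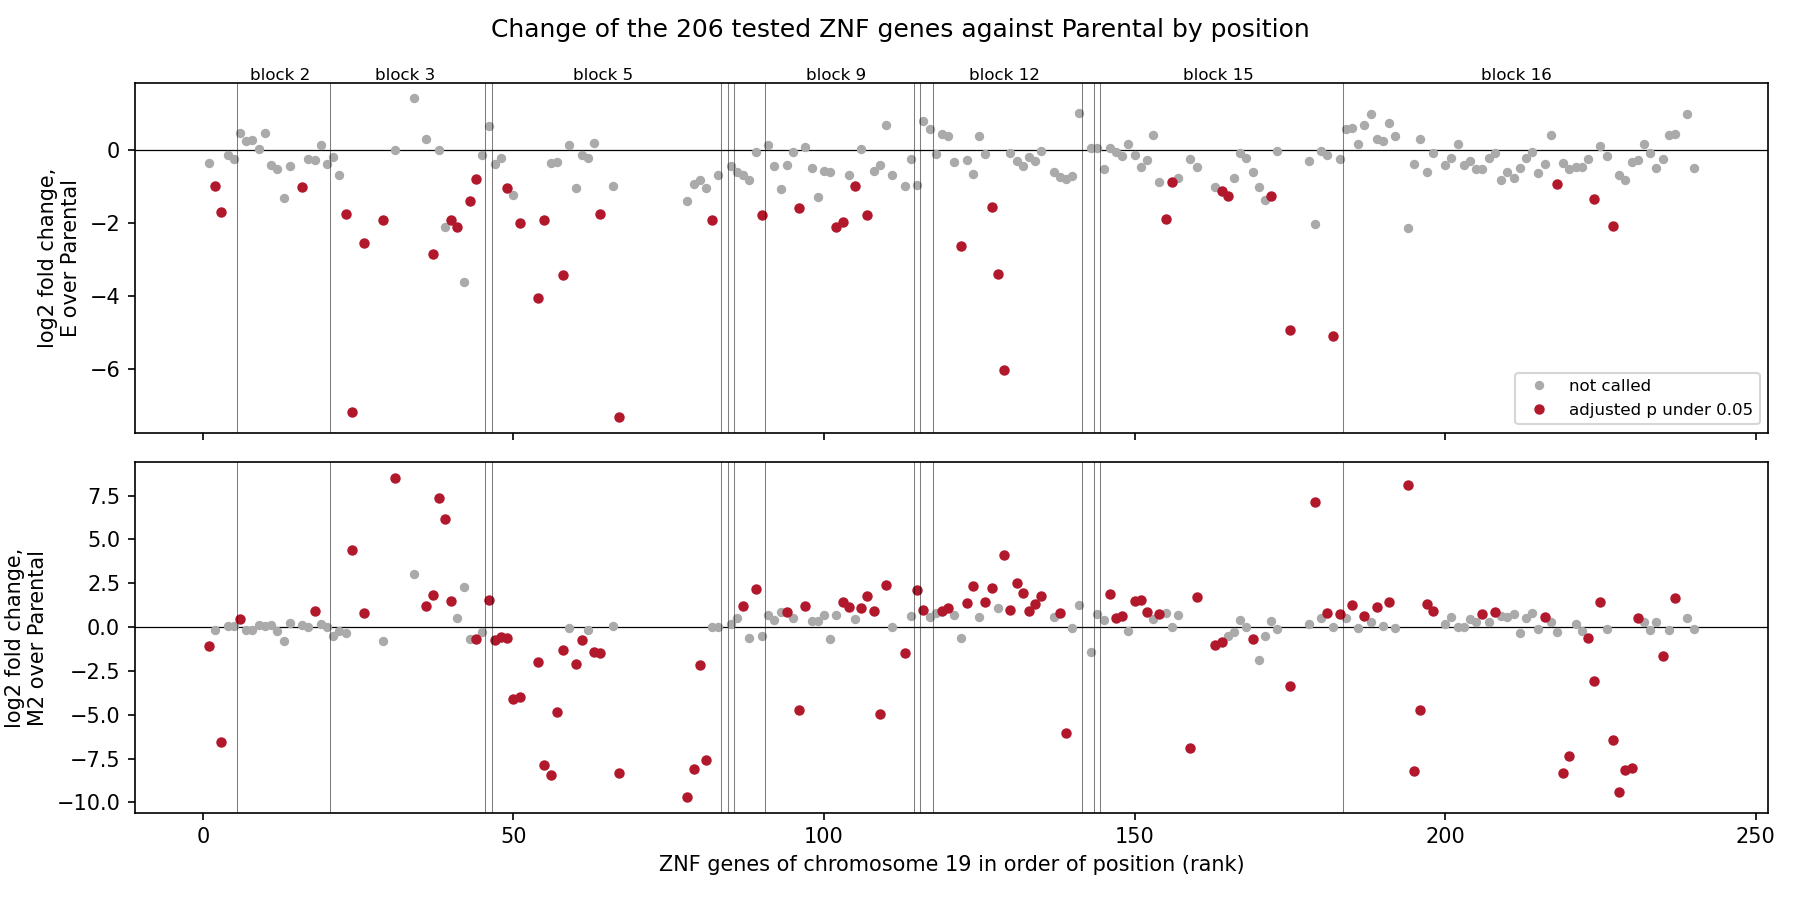
Log2 fold change over Parental of the 206 tested ZNF genes, in E (top) and M2 (bottom), against their rank by position; vertical lines divide the blocks and red points had an adjusted p under 0.05 (edgeR). In M2 the called points of block 5 lie below 0 and most of those of block 12 above it. In E every called point lies below 0, and fitted values of genes at or near 0 counts are not bounds.

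The co-repressor partners of KRAB zinc finger proteins were a list of 28 genes, all tested. In E, 4 were lower, or 14.3% against 5.93% of all genes: ATF7IP, a SETDB1 partner, at 5.14 ± 0.792 TPM in E against 44.1 ± 23.8 in Parental, and PPHLN1, SMARCAD1 and DNMT3B. In M2, 4 were higher (CBX5, MORC2, RBBP7 and TRIM24) and 5 lower (SETDB1, PPHLN1, CHD3, HDAC1 and DNMT3B), or 14.3% higher and 17.9% lower, both under the shares of all genes (21.3 and 24.7%). CHD3, a chromatin remodeller that TRIM28 recruits, fell by 1.61 in M2, at 20.1 ± 3.85 TPM against 57.6 ± 7.77 in Parental. SETDB1 fell by 0.40, although its TPM of 16.0 ± 5.07 in M2 overlapped the 16.8 ± 3.29 of Parental. In M1, SETDB1, PPHLN1 and CHD4 were lower, or 10.7% against 14% of all genes. EM1 and EM3 had only CHD3 lower (3.57%, against 1.07% and 1.88% of all genes), and EM2 had only DNMT3A higher (3.57%, against 2.32%). TRIM28 had 482 ± 86.0 TPM in M2, against 363 ± 17.9 in Parental, with a log2 fold change of 0.42 that missed the limit (adjusted p = 0.0724).

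Markers of cell state moved with the clone. Of 7 epithelial markers, 7 were lower in M1, 7 in M2 and 3 in EM2, and 1 was higher in E; EPCAM had 0.127 TPM in M2 against 361 in Parental. Of 4 mesenchymal markers, 4 were higher in M1, 3 in M2 and 2 in each of EM1, EM2 and EM3, and 1 was lower in E. The 9 markers of blood and endothelial cells summed to at most 6.18 TPM in any library, and CD14 alone had a mean of 4.04 TPM in E. Of the 4 that were tested, PECAM1 was higher in E and M1, at 0.22 and 0.797 TPM against 0.04 in Parental. CDH5 was lower in M2. Whether these states had a part in the ZNF differences was not tested.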

How the data were processed

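The deposited data were 21 gene tables, 1 per library. Per the submitters' processing notes, the authors used bcl2fastq 2.20.0.422, cutadapt 2.4, STAR 2.7.2b and RSEM 1.3.2 with hg38. The annotation release and strand setting are not given in the sources used here. The columns deposited, per the file headers, hold expected counts, TPM and each gene's effective length in bases. The expected counts were not normalized, and the authors' TPM is scaled by effective length and library. Positions and gene types came from GENCODE 29, promoter windows from RefSeq.

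Tests used expected counts rounded to whole numbers, in edgeR 4.0.16 under R 4.3.3 (robust quasi-likelihood F-test, TMM, filterByExpr by line), all 21 libraries in 1 fit with 14 residual degrees of freedom and Benjamini-Hochberg adjustment over 18632 genes. The fit was tested on simulated data. Alternatives used limma 3.58.1, DESeq2 1.42.0, other filters and limits, and each library left out. The TPM test used log2(TPM + 1) over genes averaging at least 0.1 TPM. Text and figures used Python 3.11.15, pandas 2.3.3 and matplotlib 3.10.9.

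Genes were named if near zero in 1 line only or in a run of 2 or more neighbours near zero in a line with at least 30 counts in another, if among the 10 highest genes on in all lines, or if among the 3 largest changes in a direction with no overlap of libraries and a mean CPM of at least 1. Other genes named were chosen after their values were seen. The genes, lists and limits were chosen with earlier results of these data known.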

Additional observations from a re-analysis of the deposited data

How the results depend on the processing

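Of 618 values of 27 results under 44 alternatives, 506 stayed within 1.5 times the reported count, and no named gene changed direction (1252 values of 41 named gene results kept their call, 32 lost it and 5 gained it). Counts below are of ZNF genes against Parental, with the reported count in parentheses. Higher in E (0) were 1 with DESeq2 size factors, with no low-count filter, with a mean CPM of at least 1 and with limma-voom, 3 with DESeq2 and 8 with E and Parental fitted alone. Lower in E (40) were 16 with TPM and 61 with the 2 lines alone. Higher in EM1 (1) were 3 with no filter, 8 with DESeq2, 2 with limma-voom, 5 with TPM and 5 with the length covariate. It was 2 with the long-length clone libraries set against all Parental libraries. That fit is not matched for length: the clone libraries kept had weighted lengths of 907 to 1039 bases, against 750 to 867 in Parental. Lower in EM1 (0) were 1 with no filter, DESeq2, limma-voom or the covariate. Higher in EM2 (1) were 0 with the 2 lines alone or with the long-length clone libraries, and 6 with the covariate. Lower in EM2 (17) were 10 with no filter, 34 with DESeq2, 5 with TPM, 4 with the 2 lines alone, 58 with the covariate and 8 with the long-length libraries. Higher in EM3 (1) were 2 with no filter or limma-voom, 6 with DESeq2, 5 with TPM, 10 with the covariate and 2 with the long-length libraries. Lower in EM3 (1) were 0 with the stricter filter, TPM, the 2 lines alone or the long-length libraries, 2 with DESeq2 and 9 with the covariate. Higher in M1 (13) were 7 with no filter, with the 2 lines alone or with a log2 fold of at least 1, and 22 with the covariate. Lower in M1 (14) were 8 with no filter, 7 with TPM or the 2 lines alone and 43 with the covariate. Higher in M2 (61) were 38 with the 2 lines alone and 39 with a log2 fold of at least 1. In M2, block 5 had 12 lower (19) with the 2 lines alone, and block 3 had 5 higher (8) with the stricter filter or TPM. In E, block 3 had 3 lower (9) with TPM, and block 5 had 4 (8) with TPM and 15 with the 2 lines alone. At 0 counts, genes near zero numbered 18 in M1, 15 in EM2, 14 in EM3, 13 in M2 and 11 in EM1, and 21 in Parental. At a mean of 2 TPM, 72 genes were on in all lines. With 0 counts in 1 line and at least 30 in each other line there was 1 gene, ZNF154. A gap of 2 Mb gave 10 blocks. The cause of these differences was not tested.

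With each library left out in turn, counts ran from 0 to 2 higher and 22 to 44 lower in E, 1 to 3 higher and 0 to 1 lower in EM1, 0 to 1 higher and 7 to 25 lower in EM2, 1 to 2 higher and 0 to 1 lower in EM3, 6 to 14 higher and 9 to 16 lower in M1, and 51 to 65 higher and 31 to 43 lower in M2. Genes near zero in M2 alone ran from 11 to 15. By block they ran from 12 to 19 lower in block 5, 12 to 16 higher in block 12 and 7 to 9 higher in block 3 in M2, and from 5 to 9 lower in blocks 3 and 5 in E. Without 1 of a line's own libraries, genes near zero were 42 to 44 in E, 40 to 44 in M2, 38 to 40 in EM2, 36 to 37 in EM3, 34 to 40 in M1 and 32 to 35 in EM1, and 35 to 37 in Parental.

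Replicate numbers were not taken as pairs: deviations of same-numbered libraries correlated at -0.25 to 0.31, and in no clone were all 3 above 0.1. With the replicate number as a block, 4 genes were higher in E (0), 2 in EM1 (1), 2 in EM2 (1) and 3 in EM3 (1), while 51 were lower in E and 62 higher and 45 lower in M2.

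Depth limits what a count of 3 can show: in M2 it stands for 0.0271 CPM, so the near-zero genes are those not detectable above that level.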
